A study of Sus scrofa with 63 samples.

Results

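The enzymes and receptors of xenobiotic metabolism were followed in the jejunum of pig fetuses at 2 ages near the end of gestation. Array probes were chosen by gene name alone: cytochromes P450 of the CYP1 to CYP4 families, UDP-glucuronosyltransferases (UGT1 and UGT2), sulfotransferases (SULT1 and SULT2), glutathione S-transferases (GST), carboxylesterases CES1 to CES3, flavin-containing monooxygenases FMO1 to FMO5, and the receptors AHR, NR1I2 and NR1I3. The rule took 103 of 60305 non-control probes, with 44 of the 45222 gene names or accessions that label them, and none was NR1I3. Of the 103, 71 probes of 35 genes passed the filter on dim probes and were tested among 40515 probes.

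Jejunum RNA of 63 male fetuses was hybridised to one-colour Agilent porcine arrays, 1 fetus per array, at day 90 (32 fetuses) or day 110 (31 fetuses) of gestation. The breeds were Large White (LW) and Meishan (MS), a Chinese breed known for piglets that are mature at birth, and sows of both breeds received mixed LW and MS semen, so that litters could hold purebred and crossbred fetuses. There were 9 LW, 8 MSLW (MS sire, LW sow), 9 LWMS (LW sire, MS sow) and 6 MS fetuses at day 90, and 9, 6, 9 and 7 at day 110. No fetus received a treatment. Sow identity did not enter the fit, so litter mates counted as separate samples, and the p-values measure the spread between fetuses. In whole jejunum, fewer cells of a type and less RNA per cell cannot be told apart.

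Xenobiotic metabolism is the handling of drugs, plant compounds and other foreign chemicals, and many of the same enzymes also act on steroids, bile acids and fatty acids. Cytochromes P450 and FMO enzymes oxidise a compound and carboxylesterases hydrolyse it. GST, SULT and UGT enzymes then couple glutathione, sulfate or glucuronic acid to it, which helps its excretion. The receptor AHR is known as the activator of the CYP1 genes, and NR1I2 (pregnane X receptor) as an activator of CYP3A and CYP2C genes. In the adult, liver and small intestinal enterocytes are the main sites of this metabolism, and CYP3A enzymes are the most abundant P450 of the gut.

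All levels are log2 signals after subtraction of each array's 75th percentile, so a level of 0 equals that percentile, and they are compared between fetuses for 1 probe at a time. Between 51.2% and 87.6% of the probes of an array were well above background, and no spot was saturated. The array of MS fetus 632 (day 110) had the lowest median correlation with the other arrays, 0.907, against a median of 0.962 over all arrays. LW fetus 484 (0.919) and MS fetus 532 (0.929), both of day 90, came next. The 8 enterocyte marker genes measured (FABP1, FABP2, APOA4, APOB, ALPI, SI, LCT and ANPEP) had a summed linear level of 28.4 in fetus 632 and of 293 to 912 in the other 6 MS fetuses at day 110. Low sums were not confined to fetus 632. LW fetuses 575, 559, 557 and 572 of day 110 had 132, 185, 210 and 230, below the lowest LW fetus of day 90 (290). The other LW fetuses of day 110 had 532 to 950. No fit left out these low LW fetuses. Values without fetus 632 are given where they change a call.

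The first question was which members changed between day 90 and day 110. With limma, 26 of the 71 probes changed when the 4 genotypes were averaged (adjusted p of at most 0.01 and a log2 difference of at least 0.5), which is 36.6%, against 13.8% of all probes tested. At day 110, 18 were higher (6.07% of all probes were) and 8 were lower (7.71% of all probes were). With the normexp background correction, and in the authors' values, 16 were higher and 4 lower. With 1 probe standing for a gene, the one with the highest mean level, 7 of 35 genes were higher and 4 were lower. The median difference over the 71 probes was -0.03, against -0.02 over all probes, and the median size without regard to sign was 0.37, against 0.20. The changes thus went in both directions. Of the 26 probes, 4 had passed the filter through groups of 1 age alone, 2 of CYP4F2 and 1 of CYP3A4 at day 110 and 1 of SULT1E1 at day 90. Passing in this way favours a difference in that direction, so the values of these 4 are given as a description. Another CYP4F2 probe, A_72_P407388, had passed through MS at day 90 alone and was not called (-0.01).

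The CYP3A genes rose with age. All 9 tested probes of CYP3A29, CYP3A46, CYP3A39 and CYP3A4 were higher at day 110, or 8 without the CYP3A4 probe. For that probe the filter favoured a rise. The differences ran from 1.43 to 3.86 with a median of 1.59 on the log2 scale. CYP3A29 is a porcine member of the subfamily that oxidises many drugs and steroids. Its 3 probes and the brightest CYP3A46 probe are printed here because the CYP3A result rests on them. Capitals mark 48 bases that 2 of the CYP3A29 probes share, so these 2 are not independent readings, whereas the third CYP3A29 probe reads another stretch.
CYP3A29, A_72_P755349: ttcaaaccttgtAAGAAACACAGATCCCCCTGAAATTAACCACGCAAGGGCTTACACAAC
CYP3A29, A_72_P797432: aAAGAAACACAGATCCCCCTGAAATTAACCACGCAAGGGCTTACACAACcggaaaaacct
CYP3A29, A_72_P088491: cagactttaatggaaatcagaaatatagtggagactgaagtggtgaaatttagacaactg
CYP3A46, A_72_P743157: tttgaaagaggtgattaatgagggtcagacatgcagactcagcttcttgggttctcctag

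For CYP3A29 (probe A_72_P755349), the lowest, median and highest levels at day 90 were -2.15, -1.11 and -0.75 in LW, -2.79, -2.11 and -0.86 in MSLW, -2.19, -1.09 and -0.32 in LWMS, and -2.77, -1.35 and -0.85 in MS. At day 110 they were -1.51, 0.50 and 3.10 in LW, 0.47, 1.56 and 3.18 in MSLW, 0.62, 2.88 and 4.10 in LWMS, and -2.85, 1.17 and 2.19 in MS. The ages did not overlap in either cross. They overlapped in LW, and in MS through fetus 632, which lay below every MS fetus of day 90. The mean age difference was 3.01 (standard error 0.28, adjusted p = 1.88e-13), or 8.08-fold. It was 2.11 in LW, 3.70 in MSLW, 3.97 in LWMS and 2.29 in MS, and the difference in MS missed the threshold (adjusted p = 0.0115). Without fetus 632 it was 2.88 and passed (adjusted p = 0.000351). The other probes of CYP3A29 gave mean differences of 3.64 and 3.86. On each of the 8 slides CYP3A29 was higher at day 110, by 1.19 to 4.03.

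**Figure D1:**
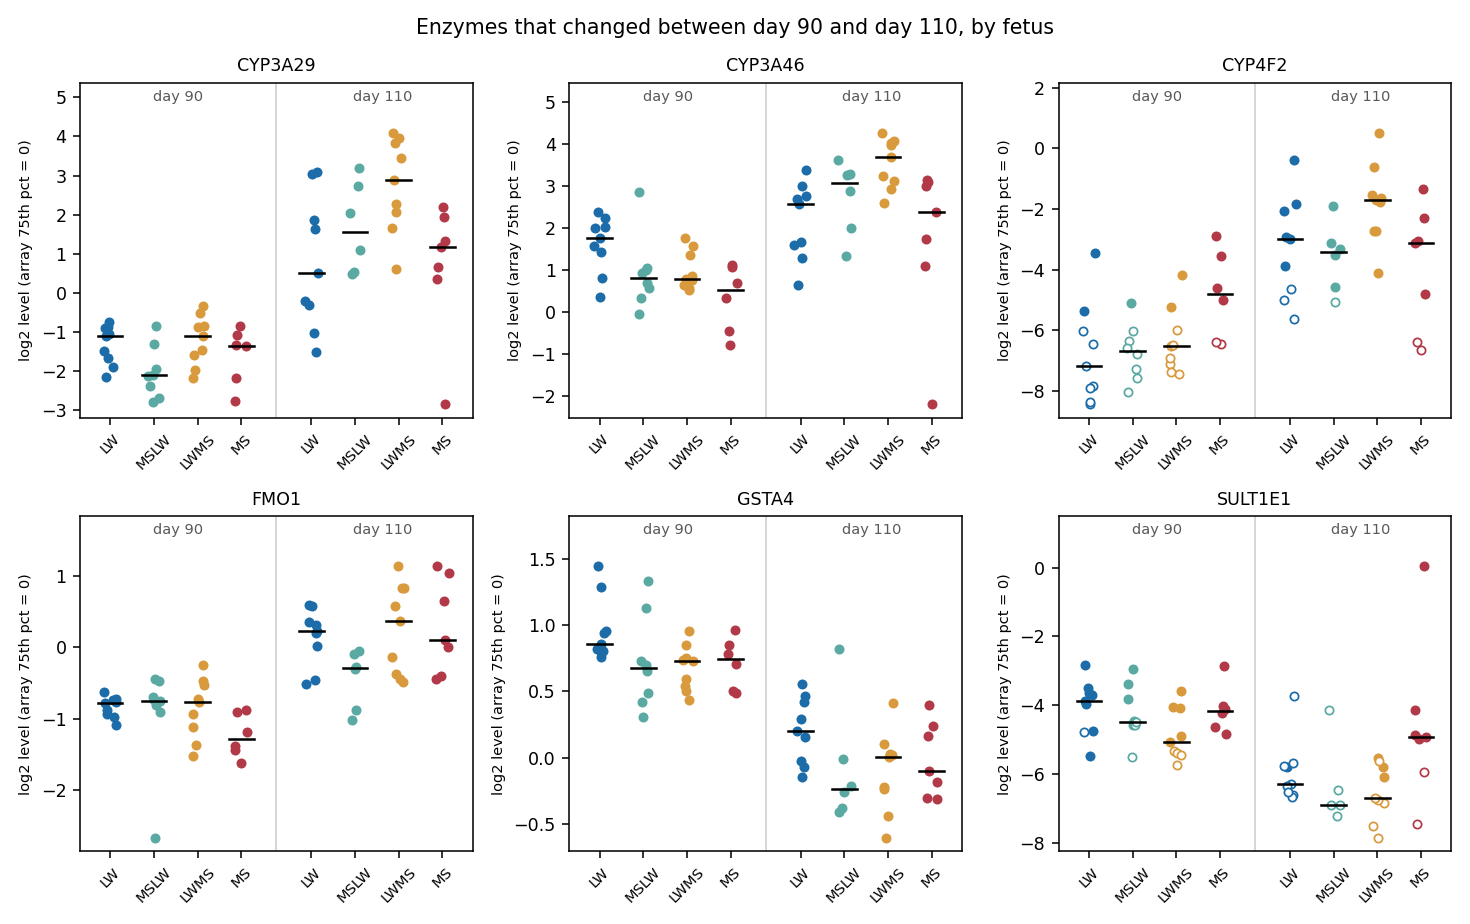
Levels of the age-responsive members by group (log2, 75th percentile of each array set to 0, vertical axis) for each genotype at day 90 and day 110; each point is 1 fetus, open circles are signals not well above background, and black bars are group medians. CYP3A29 medians lie between -2.11 and -1.09 at day 90 and between 0.50 and 2.88 at day 110.

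CYP3A46 (probe A_72_P743157) lay at -0.78, 0.90 and 2.85 (lowest, median and highest) in the 32 fetuses of day 90 and at -2.19, 2.92 and 4.28 in the 31 fetuses of day 110. Fetus 632 was again the lowest at day 110. The mean difference was 1.59 (standard error 0.23, adjusted p = 1.45e-07), with 2.56 in LWMS and 1.81 in MSLW passing the threshold, and LW fetuses went from a median of 1.76 to one of 2.58 without a call. All 4 CYP3A46 probes were higher in the mean of the genotypes. CYP3A39 had medians of -4.90 at day 90 and -3.45 at day 110, a difference of 1.45 (standard error 0.37, adjusted p = 0.00131), which was 0.65 with normexp and still called. The probe named CYP3A4 was dim, well above background on 5 arrays at day 90 and 17 at day 110, and its difference was 1.43 (standard error 0.27, adjusted p = 2.5e-05). It had passed the filter through LWMS at day 110 alone (8 of 9 arrays), a group where it was high. Its difference was smaller, 0.40, with the normexp background correction, under the minimum of 0.5.

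CYP4F2, known for the hydroxylation of vitamin K, vitamin E and fatty acids, was brighter at day 110 on 2 of its 3 probes. The probes are printed because they differ in this. Those that were brighter share 55 bases (capitals), and the third reads another stretch.
CYP4F2, A_72_P224042: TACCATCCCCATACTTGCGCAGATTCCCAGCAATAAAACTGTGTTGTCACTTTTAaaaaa
CYP4F2, A_72_P444021: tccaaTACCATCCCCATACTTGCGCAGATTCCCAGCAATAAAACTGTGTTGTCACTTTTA
CYP4F2, A_72_P407388: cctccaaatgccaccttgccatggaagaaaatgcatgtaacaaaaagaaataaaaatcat

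CYP4F2 (probe A_72_P224042) was well above background on 9 of 32 arrays at day 90 and on 25 of 31 at day 110. Its lowest, median and highest levels at day 90 were -8.45, -7.17 and -3.47 in LW, -8.04, -6.68 and -5.09 in MSLW, -7.44, -6.52 and -4.18 in LWMS, and -6.46, -4.81 and -2.90 in MS. At day 110 they were -5.64, -2.99 and -0.40 in LW, -5.06, -3.42 and -1.90 in MSLW, -4.11, -1.71 and 0.52 in LWMS, and -6.65, -3.12 and -1.33 in MS. The ages lay narrowly apart in both crosses and overlapped in LW and MS. The mean difference was 3.01 (standard error 0.36, adjusted p = 6.16e-10), and 3.32 for A_72_P444021. Both probes had passed the filter through groups of day 110 alone, so that a difference in this direction was favoured. Because most signals of day 90 were not well above background, the size of the fold is uncertain. For A_72_P444021 no LW array of day 90 was well above background. With each of these arrays set to the higher of its lowest clear signal and the probe's own signal, the LW mean of day 110 was 4.13-fold higher. That floor is the lowest clear signal of any probe, so 4.13 is not a strict lower limit. Over the 63 arrays, the difference between the 2 probes that share 55 bases had an SD of 1.08. The probe A_72_P407388 differed by -0.01 (standard error 0.28, adjusted p = 0.978). The other CYP4 genes tested, CYP4A21, CYP4A24 and CYP4V2, had age differences of 0.09 to 0.21 and none passed.

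Among the flavin-containing monooxygenases, FMO1, which oxidises nitrogen and sulfur atoms of drugs, rose. FMO5, a family member with little activity towards such substrates, was lower on 2 of its 3 probes. FMO1 (probe A_72_P165386) lay at -2.66, -0.85 and -0.26 at day 90 and at -1.02, 0.01 and 1.14 at day 110. Its mean difference was 1.03 (standard error 0.12, adjusted p = 8.26e-10), or 2.04-fold, and all 3 FMO1 probes passed, with 0.92 to 1.29. Of the 3 FMO5 probes, A_72_P443526 fell by 0.90 (standard error 0.13, adjusted p = 1.57e-07) and A_72_P682659 fell by 0.55 (adjusted p = 0.000484). The brightest, A_72_P537774, differed by -0.45 (adjusted p = 0.000102), under the minimum difference, and its means in MS were -2.31 at day 90 and -2.20 at day 110. The call of A_72_P443526 was lost with normexp (-0.24, adjusted p = 0.0098) and in the authors' values (-0.43). FMO1 was higher at day 110 on 8 of 8 slides.

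The carboxylesterases, which cleave ester drugs and lipids, differed by probe. Of 9 CES probes, 1 rose with age, A_72_P254392 of CES3, from a median of -3.59 at day 90 to one of -2.001 at day 110. The difference was 1.59 (standard error 0.20, adjusted p = 3.41e-09), or 3.02-fold. The other probe named CES3, O1303, had an age difference of -0.15 (adjusted p = 0.432). That probe shares 58 of its 60 bases with a CES1 probe, and over the 63 arrays the difference between the 2 had an SD of 0.0516, so these 2 names give 1 reading. The 3 probes are printed to show this, with the shared run in capitals.
CES1, A_72_P444754: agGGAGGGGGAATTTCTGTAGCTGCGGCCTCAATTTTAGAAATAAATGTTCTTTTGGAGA
CES3, O1303: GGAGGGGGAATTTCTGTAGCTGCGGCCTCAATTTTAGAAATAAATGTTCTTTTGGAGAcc
CES3, A_72_P254392: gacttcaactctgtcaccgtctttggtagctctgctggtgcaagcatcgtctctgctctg

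Among the conjugating enzymes, 4 of 13 GST probes fell (7.71% of all probes did), and these were of 2 genes. Another 2 probes of 1 gene rose (6.07% of all probes did), and 7 did not pass. GSTA4, which conjugates the lipid peroxidation product 4-hydroxynonenal, was the only member whose standing probe passed in each of the 4 genotypes. For GSTA4 (probe A_72_P210752) at day 90, the lowest, median and highest levels were 0.76, 0.86 and 1.45 in LW, 0.30, 0.68 and 1.33 in MSLW, 0.44, 0.73 and 0.95 in LWMS, and 0.49, 0.74 and 0.96 in MS. At day 110 they were -0.14, 0.20 and 0.56 in LW, -0.41, -0.24 and 0.82 in MSLW, -0.60, 0.01 and 0.41 in LWMS, and -0.31, -0.10 and 0.40 in MS. The ages overlapped in MSLW through 1 high fetus and did not overlap in LW, LWMS and MS. The mean difference was -0.76 (standard error 0.07, adjusted p = 1.11e-12), with -0.75 in LW, -0.80 in MSLW, -0.78 in LWMS and -0.73 in MS. The second GSTA4 probe gave -0.82, but it shares 34 bases with the first, so these 2 are not independent readings.

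GSTT1, of the theta class that acts on small halogenated compounds, fell by 0.77 (standard error 0.13, adjusted p = 3.12e-06), from a median of -0.42 to one of -1.21. Its 2 probes have the same 60 bases, and their difference had an SD of 0.114 over the 63 arrays. That spread holds for this pair: the CYP2A19 probe A_72_P441838 and the CYP2A7 probe, dim and also identical in sequence, differed with an SD of 0.874. GSTO1, of the omega class with reductase activity, rose by 0.73 (standard error 0.14, adjusted p = 2.18e-05), from a median of 4.04 to one of 4.92. GSTA1, GSTA2, GSTK1, GSTM3 and GSTP1 did not pass with age.

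SULT1E1, the estrogen sulfotransferase, was dim, and it passed the filter through 2 groups of day 90 alone (LW, 8 of 9 arrays, and MS, 6 of 6), where it was brighter. It was well above background on 24 of 32 arrays at day 90 and on 10 at day 110, where 1 fetus lacked a value, and its median went from -4.35 to -6.19. The difference was -1.54 (standard error 0.28, adjusted p = 1.17e-05). It was -0.27 with normexp and -0.40 in the authors' values, and passed in neither. The 3 probes of SULT1A1, a phenol sulfotransferase, differed by -0.34 to -0.36 (adjusted p from 0.000172 to 0.000307), under the minimum difference. CYP2A19, a porcine enzyme that oxidises coumarin and skatole, differed by -0.93 (standard error 0.19, adjusted p = 6.17e-05) on its standing probe, and this call was also lost with normexp (-0.25) and in the authors' values (-0.43). The other 2 probes of CYP2A19 differed by -0.43 and -0.29 and did not pass. No other CYP2 probe of the 15 tested passed with age, and neither did CYP1A2 or UGT2A2. The tested CYP1A2 probe, A_72_P758583, was well above background on 63 arrays and matched no RefSeq symbol. A_72_P440936, which matched RefSeq CYP1A2, was well above background on 6 arrays and gave no test.

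The receptors changed less. AHR (probe A_72_P131821) had medians of -1.63 at day 90 and -1.21 at day 110, a difference of 0.38 (standard error 0.10, adjusted p = 0.00263) that is under the minimum. Another AHR probe, A_72_P180481, differed by 0.52 (adjusted p = 0.00376) and passed, and the third differed by 0.20. NR1I2 lay at -0.03 to 0.12 on its 3 probes, with medians of 2.33 at day 90 and 2.56 at day 110 on the brightest, and none passed.

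The second question was whether the age difference depended on the genotype. It was called for 23 of the 71 probes in LWMS (9.86% of all probes were), 12 in LW (4.76%), 9 in MSLW (5.43%) and 5 in MS (3.12%). Without fetus 632 the counts were 10 in MS and 14 in MSLW. The 5 in MS were 3 higher (1.62% of all probes) and 2 lower (1.51%), and with arrays centred on the median 3 were higher and 0 lower. All 9 CYP3A probes passed in LWMS, 4 in MSLW, 3 in LW and 0 in MS with limma. The CYP3A4 probe had passed the filter through LWMS at day 110 alone, and the CYP3A39 probe through that group and LW at day 90. The 2 CYP4F2 probes called in LWMS had passed through that group and another of day 110. For these probes a call in LWMS was favoured, so the counts of the genotypes are not on equal terms. In MS the CYP3A differences were 1.26 to 2.49, and 9 of 9 had an unadjusted p under 0.05 (8297 of all 40515 probes did). Without fetus 632 they were 1.59 to 2.91, and 4 passed. The test of the difference between genotypes passed for none of the 71 probes (limma F test of genotype by age, 0.0913% of all probes). An unadjusted p under 0.05 was found for 12 of the 71 and for 3019 of all 40515 probes. With array weights, 3 passed. The test of sow breed by age passed for 0 of the 71 (limma, 0.388% of all probes), and 1 passed with array weights. Its unadjusted p was under 0.05 for 10 of the 71 and for 4407 of all 40515 probes. For genotype by age, the lowest unadjusted p belonged to 2 FMO5 probes and CYP4F2 (0.00509, 0.0055 and 0.00754, with adjusted p of 0.359, 0.368 and 0.414).

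**Figure D2:**
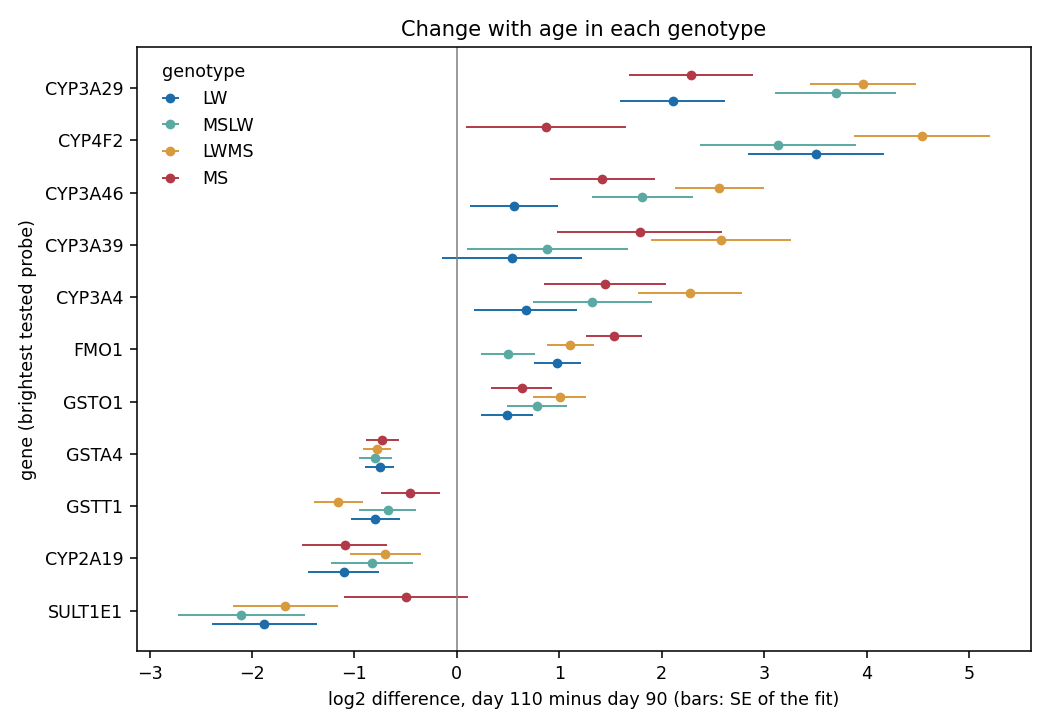
Age difference (day 110 minus day 90, log2, horizontal axis) in LW, MSLW, LWMS and MS of the genes whose brightest probe was called in the mean of the 4 genotypes; bars are standard errors of the fit. GSTA4 lies between -0.80 and -0.73 in all genotypes, and CYP3A29 between 2.11 and 3.97.

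The third question was whether MS and LW fetuses differed. At day 90, 10 of the 71 probes passed (3.58% of all probes did), 4 higher (1.36%) and 6 lower (2.21%) in MS. At day 110, 10 passed (4.99% of all probes did), and all 10 were lower in MS (3.15% of all probes were lower and 1.84% higher; 1 member higher and 8 lower with normexp). The CYP2C subfamily supplied all 6 of the lower probes at day 90 and 6 of the 10 at day 110. Of these, the CYP2C34 probe A_72_P292173 had passed the filter through LW and cross groups and through no MS group. This favours a lower value in MS, so its breed values are given as a description. The CYP2C42 probe had passed through MS at day 110 and not at day 90.

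CYP2C34, CYP2C42 and CYP2C49 are porcine members of the subfamily that in humans oxidises many common drugs and arachidonic acid. In the RefSeq gene order (assembly Sscrofa11.1, used for order alone) they lie in 1 stretch of 6 protein-coding genes, in the order CYP2C34, CYP2C49, CYP2C42. Their probes are printed because members of this subfamily are alike and could share signal. The longest run that any 2 of the 6 have in common is 7 bases. That compares the probes with each other alone. Whether a probe also reads the RNA of another CYP2C gene was not tested.
CYP2C34, A_72_P445013: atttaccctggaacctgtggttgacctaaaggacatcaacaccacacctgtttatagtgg
CYP2C34, A_72_P292173: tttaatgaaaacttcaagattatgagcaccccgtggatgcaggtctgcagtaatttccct
CYP2C49, A_72_P146661: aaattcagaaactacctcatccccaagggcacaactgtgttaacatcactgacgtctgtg
CYP2C49, A_72_P523435: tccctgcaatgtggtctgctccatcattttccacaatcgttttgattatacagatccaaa
CYP2C49, A_72_P496311: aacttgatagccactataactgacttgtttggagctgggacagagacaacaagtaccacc
CYP2C42, A_72_P176011: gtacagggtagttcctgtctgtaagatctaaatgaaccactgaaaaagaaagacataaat

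For CYP2C42 (probe A_72_P176011) at day 90, the lowest, median and highest levels were 1.995, 2.43 and 2.57 in LW, 0.20, 1.47 and 2.44 in MSLW, 0.37, 1.38 and 2.44 in LWMS, and -8.09, -1.69 and 0.29 in MS. At day 110 they were 2.14, 2.72 and 3.57 in LW, 0.46, 1.37 and 2.18 in MSLW, 0.71, 2.36 and 3.14 in LWMS, and -6.62, -1.48 and -0.25 in MS. LW and MS did not overlap at either age, and both crosses had medians between those of the purebreds. In 3 MS fetuses, 826 and 827 at day 90 and 632 at day 110, the signal was not well above background. The MS minus LW difference was -5.65 at day 90 (standard error 0.75, adjusted p = 1.16e-07) and -4.74 at day 110 (standard error 0.71, adjusted p = 2.05e-06). It was negative on 6 of 6 slides at day 90 and on 5 of 5 at day 110, and its size rests in part on the signals near the floor.

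CYP2C49 (probe A_72_P146661) was well above background in every fetus. At day 90 its lowest, median and highest levels were 2.67, 3.36 and 4.76 in LW, -0.41, 0.61 and 3.80 in MSLW, 0.40, 2.52 and 3.68 in LWMS, and -2.91, -1.04 and 0.03 in MS. At day 110 they were 0.19, 2.76 and 4.54 in LW, -0.46, 0.59 and 3.48 in MSLW, -0.25, 3.12 and 3.87 in LWMS, and -4.21, -0.51 and 2.83 in MS. LW and MS did not overlap at day 90 and overlapped at day 110. The LWMS median lay nearer to that of LW than the MSLW median did at both ages. The MS minus LW difference was -4.85 (standard error 0.70, adjusted p = 9.99e-07), or 28.9-fold, at day 90 and -3.25 (standard error 0.67, adjusted p = 0.000505), or 9.54-fold, at day 110.

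CYP2C34 (probe A_72_P445013) was also well above background in every fetus. At day 90 its lowest, median and highest levels were 3.47, 4.06 and 5.19 in LW, -0.05, 1.24 and 4.44 in MSLW, 1.03, 3.11 and 4.42 in LWMS, and -1.49, -0.25 and 1.36 in MS. At day 110 they were -0.34, 3.40 and 5.15 in LW, -0.02, 1.11 and 3.94 in MSLW, 0.69, 4.08 and 4.73 in LWMS, and -3.03, 0.08 and 3.67 in MS. The breeds were apart at day 90 and overlapped at day 110. The MS minus LW difference was -4.36 at day 90 (standard error 0.72, adjusted p = 1.44e-05), or 20.6-fold. The difference of -2.75 at day 110 (standard error 0.69, adjusted p = 0.0046) was less stable, and its call was lost under 5 of the 12 alternatives. These were the fits without fetus 632 (-2.21, adjusted p = 0.0246) and without fetuses 632, 484 and 469 (-2.12, adjusted p = 0.0358), slide as a block (-2.58, adjusted p = 0.0115), median centring (-2.63, adjusted p = 0.0113) and purebred fetuses alone (adjusted p = 0.0115). The second CYP2C34 probe, A_72_P292173, gave -5.95 at day 90 and -5.05 at day 110. It was well above background in 3 of 6 MS fetuses at day 90 and in 2 of 7 at day 110, so these sizes rest in part on signals near the floor. The MS minus LW difference changed between the ages for no member by limma's test of breed by age (0.0395% of all probes). The unadjusted p of that test was under 0.05 for 5 of the 71 and for 2680 of all 40515 probes.

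**Figure D3:**
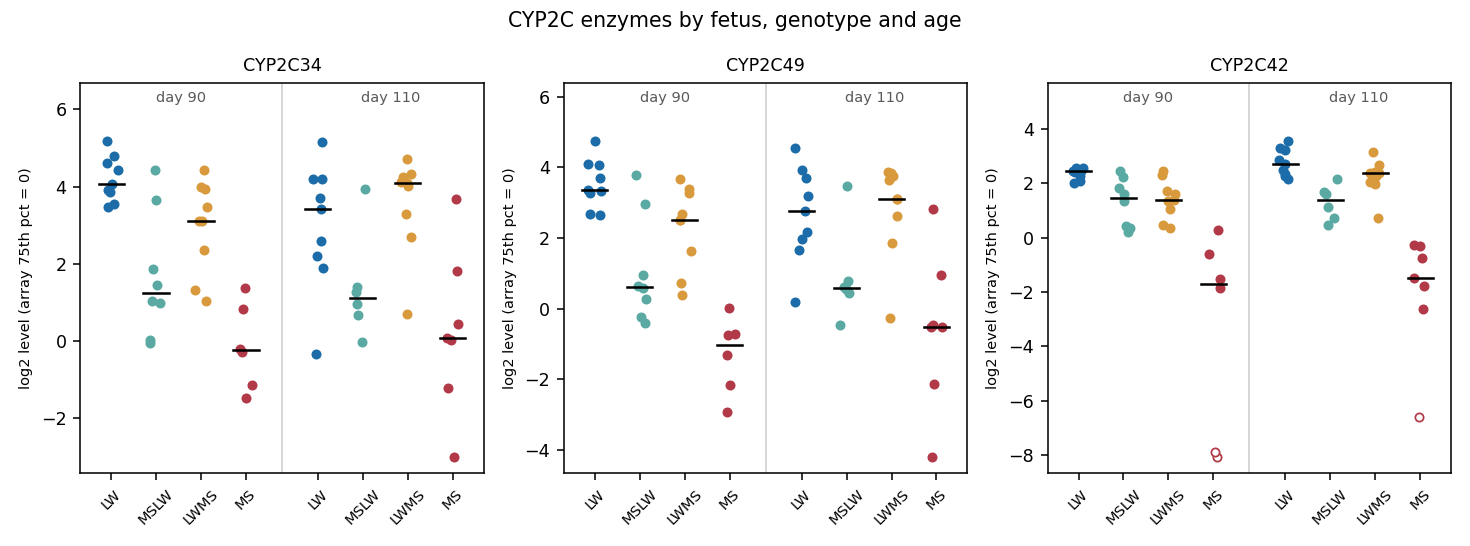
Levels of CYP2C34, CYP2C49 and CYP2C42 by group (log2, 75th percentile of each array set to 0, vertical axis); each point is 1 fetus, open circles are signals not well above background, and black bars are group medians. LW medians lie highest at day 90 and MS medians lie lowest at both ages, with the MSLW medians below those of LWMS for CYP2C34 and CYP2C49.

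Within a group, the same fetuses tended to hold the extremes of the 5 CYP2C34 and CYP2C49 probes, and CYP2C42 went with them in part. Over the 63 fetuses, groups pooled, correlations among those 5 probes were 0.939 to 0.988. With CYP2C42 included the lowest was 0.561. At day 90, LWMS fetus 508 was the second highest on 4 of 6 probes and the lowest on CYP2C42. MS fetus 826 was the second highest on 3 and the lowest on CYP2C42. MSLW fetuses 450 and 498 were the highest and the second highest of their 8 at day 90 on 6 of 6 probes. At day 110, MSLW fetus 560 and MS fetus 409 were each the highest of their group on 5 of 6. LWMS fetus 405 and LW fetus 575 were each the lowest of theirs on 6 of 6, and fetus 632 was the lowest MS fetus on 5 of 6. LW fetus 575, at 132, had the second lowest summed enterocyte level of day 110 after fetus 632, whereas LWMS fetus 405, at 1056, had the highest of its group. The part of these cells in the CYP2C levels was not tested.

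The crosses set the breed of the sire apart from that of the sow. Sire breed can vary within a litter, whereas sow breed and age vary between litters alone. With litter mates counted as separate samples, the sow and sire p-values and counts are not on equal terms. In the sow difference, maternal genes, the uterus and, in these male fetuses, the X chromosome cannot be told apart. By sire, 15 of the 71 probes passed an adjusted p of 0.05 with limma (6.95% of all probes did), 1 higher (3.11%) and 14 lower (3.84%) with an MS sire. By sow, 15 passed (16.0% of all probes did), 9 higher (7.26%) and 6 lower (8.71%) with an MS sow, a share of 21.1% of the members. The sow count was 35 with array weights, 21 without fetus 632 and 27 without fetuses 632, 484 and 469. The sow split was 13 higher and 4 lower with arrays centred on the median, and 7 higher and 8 lower in the authors' values. The sire calls were 11 of 15 CYP2 probes, 2 CYP3A46 probes, SULT2A1 and, as the single higher one, CYP4A21. Among the CYP2 probes, A_72_P292173 had passed the filter through every group with an LW sire. Of the groups with an MS sire, it had passed through MSLW at day 90 alone. The sow calls were 6 lower CYP2 probes and, higher, 5 CES (2 of them 1 reading), 2 GSTA2, 1 CYP4 and 1 UGT probe.

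With an MS sire, CYP2C49 (A_72_P146661) lay at -4.21, 0.03 and 3.80, and with an LW sire at -0.25, 3.16 and 4.76, a difference of -2.82 (standard error 0.34, adjusted p = 9.95e-09). The difference by sow was -1.23 (standard error 0.34, adjusted p = 0.00889). For CYP2C34 (A_72_P445013) the difference was -2.66 by sire (standard error 0.35, adjusted p = 8.37e-08) and -0.90 by sow, which did not pass. For CYP2C42 it was -2.85 by sire and -2.34 by sow (adjusted p = 3.55e-08 and 2.43e-06). The reciprocal crosses test the sire difference against the sow difference directly, a comparison made after these values had been seen. MSLW minus LWMS was -1.75 for CYP2C34 (A_72_P445013, standard error 0.49, adjusted p = 0.0474) and -2.80 for A_72_P292173, with dim signals in 4 of 14 MSLW fetuses (adjusted p = 0.0351), the 2 members that passed of 71 (1.62% of all probes did, and 0.760% were lower). It was -1.59 for CYP2C49 (adjusted p = 0.0683) and -0.52 for CYP2C42 (adjusted p = 0.62), which did not pass. At day 110, A_72_P292173 had passed the filter through LWMS and not through MSLW, which favours a lower MSLW value there.

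**Figure D4:**
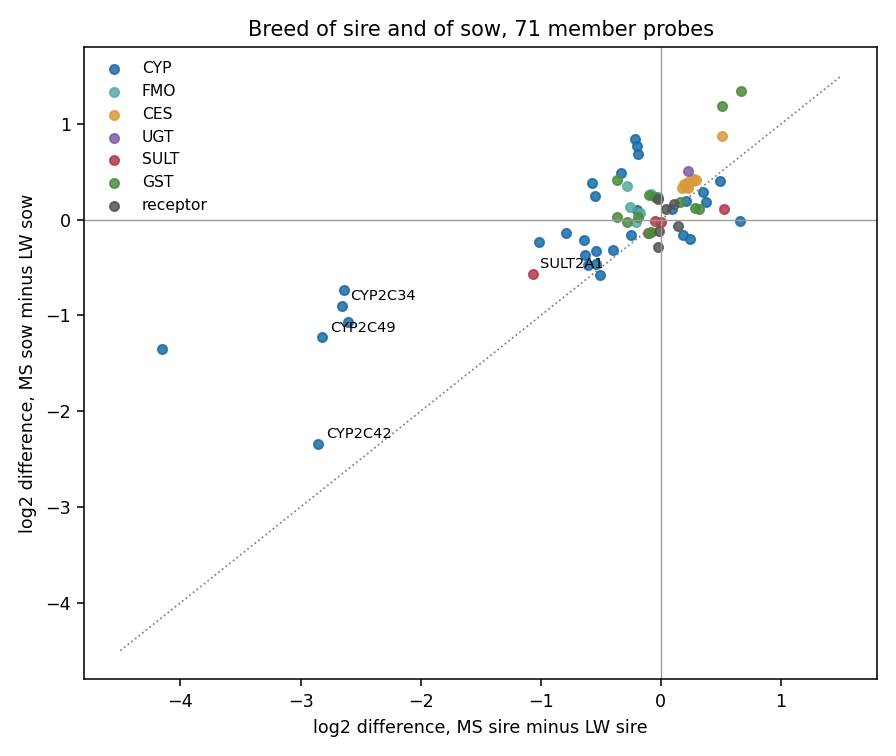
Difference by breed of the sow (MS minus LW, log2, vertical axis) against difference by breed of the sire (horizontal axis) for the 71 tested member probes, coloured by enzyme family; the dotted line marks equality. CYP2C42 lies near the line at -2.34 and -2.85, and the CYP2C34 and CYP2C49 probes lie on the side of the larger sire difference.

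CYP2D25, a porcine enzyme known for vitamin D hydroxylation, was lower in MS at day 110 on 3 of 3 probes. For probe A_72_P530052 the lowest, median and highest levels at day 110 were -0.43, 0.80 and 1.94 in LW, -0.26, 0.72 and 1.13 in MSLW, 0.03, 1.04 and 1.22 in LWMS, and -1.57, -0.36 and 0.40 in MS. MS had the lowest median, and its range overlapped that of each of the other groups. The difference was -1.32 (standard error 0.28, adjusted p = 0.000598), and it was -0.60 by sire and -0.48 by sow, both called. SULT2A1, which sulfates bile acids and dehydroepiandrosterone, had medians of -3.10 in LW, -4.24 in MSLW, -3.03 in LWMS and -4.20 in MS at day 110. Its MS minus LW difference was -1.74 (standard error 0.44, adjusted p = 0.00457), a call lost under 8 of the 12 alternatives, among them without fetus 632 (-1.39, adjusted p = 0.0246). Its sire difference was -1.07 (standard error 0.22, adjusted p = 0.000619), and -0.40 with normexp (adjusted p = 0.0296). CYP2A19 was lower with an MS sire, by -0.63 (adjusted p = 0.0272), and with slide as a block this was -0.56 (adjusted p = 0.0704), and with normexp -0.23 (adjusted p = 0.150), neither of which passed.

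The members that were higher in MS at day 90 were UGT2A2, CYP4A21 and 2 probes of GSTA2. UGT2A2, a glucuronosyltransferase, had lowest, median and highest levels of -0.01, 0.68 and 1.29 in LW, -0.16, 1.36 and 2.15 in MSLW, 1.25, 1.53 and 2.10 in LWMS, and 1.69, 1.84 and 2.61 in MS at day 90. LW and MS did not overlap. The difference was 1.26 (standard error 0.26, adjusted p = 0.000606), or 2.40-fold, and at day 110 the medians were 1.24 in LW and 1.49 in MS. By sow the difference was 0.51 (adjusted p = 0.00336). CYP4A21, of a subfamily that hydroxylates fatty acids and bile acids, differed by 1.08 at day 90 (standard error 0.25, adjusted p = 0.00295), by 0.40 by sow and by 0.49 by sire. It was the only member called higher by both. Of its 4 probes 1 was tested, A_72_P710633, which shares 24 bases with the CYP4A24 probe A_72_P440261. With an MS sow, 5 of the 9 CES probes were higher (7.26% of all probes were). Of these, 2 are the CES1 and CES3 probes that give 1 reading. CES1 (A_72_P444754) had medians of 5.10 with an LW sow and 5.50 with an MS sow, a difference of 0.42 (standard error 0.14, adjusted p = 0.0305). CES3 (A_72_P254392) differed by 0.88 by sow (standard error 0.20, adjusted p = 0.0015).

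GSTA1 and GSTA2 encode alpha class enzymes that are abundant in liver and gut, and their probes did not all move together. The 4 probes are printed because 3 carry the name GSTA2 and differ in what they show, although no 2 of them share more than 7 bases.
GSTA1, A_72_P607988: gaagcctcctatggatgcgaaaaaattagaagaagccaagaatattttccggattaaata
GSTA2, A_72_P127076: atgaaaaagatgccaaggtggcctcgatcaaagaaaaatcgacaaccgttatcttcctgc
GSTA2, A_72_P088136: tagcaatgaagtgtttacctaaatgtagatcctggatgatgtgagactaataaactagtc
GSTA2, A_72_P634937: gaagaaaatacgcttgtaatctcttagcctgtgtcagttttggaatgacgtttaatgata

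For GSTA2 (A_72_P088136) at day 90, the lowest, median and highest levels were -4.65, 1.45 and 3.07 in LW, 2.23, 2.68 and 3.91 in MSLW, 2.48, 3.36 and 4.47 in LWMS, and 3.34, 3.81 and 4.41 in MS. LW spread far more widely than the other groups, with an SD of 3.14 against 0.45 to 0.68. Its low end was 3 fetuses, 895, 894 and 500, at -4.65, -4.26 and -3.40. The MS minus LW difference was 3.82 (standard error 0.83, adjusted p = 0.00131), and with purebred fetuses alone its adjusted p was 0.0366. A_72_P634937 gave a like value, 3.35 (adjusted p = 0.00232). The third GSTA2 probe, A_72_P127076, had medians of 2.74 in LW and 3.30 in MS and was not called. On that probe fetuses 895, 894 and 500 lay at 1.65, 2.08 and 1.53. In GSTA1 they lay at 2.32, 2.63 and 2.11, and LW fetuses 462 and 736 were the low ones instead, at -4.41 and -3.97. At day 110, fetus 632 was low in GSTA2 (-2.98) and, not well above background, in GSTA1 (-4.93).

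**Figure D5:**
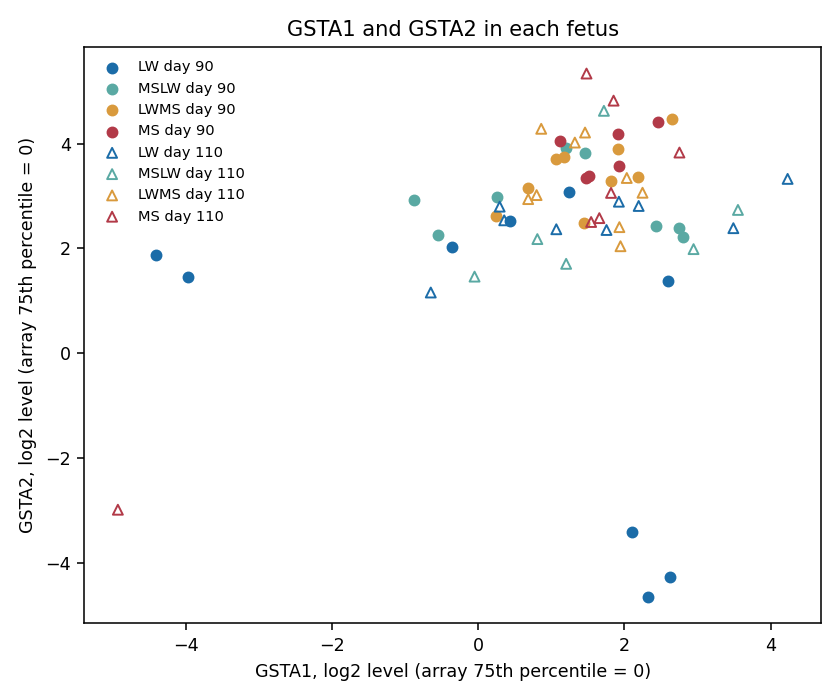
Level of GSTA2 (probe A_72_P088136, vertical axis) against level of GSTA1 (probe A_72_P607988, horizontal axis), both log2 with the 75th percentile of each array set to 0; each point is 1 fetus, filled circles are day 90, open triangles are day 110, and colours are genotypes. LW fetuses 895, 894 and 500 lie low in GSTA2 (-4.65, -4.26 and -3.40) and not in GSTA1, 462 and 736 lie low in GSTA1 alone, and 1 MS fetus of day 110 lies low in both.

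The remaining 32 probes did not pass the filter and gave no test, and each was well above background on at most 23 of the 63 arrays. They included all probes of CYP1A1, CYP1B1, CYP2A7, CYP2C33, CYP2E1, CYP2U1, CYP4B1 and UGT2B15. CYP2E1, which oxidises ethanol, was not well above background on most arrays on any of its 4 probes.

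The genes that serve these enzymes were followed as a list of 59, of which 49 were tested. With age, 9 were higher (6.07% of all probes were) and 2 lower (7.71%). POR, the reductase that passes electrons to P450 enzymes, rose by 1.21 and the electron carrier CYB5A by 0.80. The epoxide hydrolase EPHX1 rose by 1.25, the quinone reductase NQO1 by 0.79, MGST2 by 0.67 and the exporter ABCC3 by 1.25. The regulators NFE2L2 and PPARGC1A rose by 0.72 and 1.05. The aldehyde oxidase AOX1 fell by 1.51, and PAPSS2, which makes the sulfate donor of SULT enzymes, fell by 0.52. The median over the list was 0.09, against -0.02 over all probes. Between MS and LW, 0 of the 49 passed at day 90 with limma (3.58% of all probes did). An unadjusted p under 0.05 was found for 9 of the 49 and for 7298 of all 40515 probes. At day 110, EPHX2 was higher (1.73) and AOX1 (-2.52) and the aldo-keto reductase AKR1B1 (-0.87) were lower in MS, 1 up and 2 down, where 1.84% and 3.15% of all probes were called.

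Markers of several cell types moved with age as well. Of 8 enterocyte markers, 4 rose (FABP1, ALPI, SI and LCT, by 1.37 to 2.55) and 2 fell (APOB by 0.996 and ANPEP by 0.59). Their summed linear level ran from 202 to 545 at day 90 and from 28.4 to 1122 at day 110. Of 4 goblet cell markers 3 rose. Hepatocyte markers, whose sum ran from 2.32 to 11.3 at day 90 and from 0.680 to 9.20 at day 110, fell in 4 of 7 genes, and ALB was well above background on 30 of 63 arrays. Between MS and LW 0 of the 8 enterocyte markers were called with limma at either age. At each age 2 had an unadjusted p under 0.05, as did 7298 of all 40515 probes at day 90 and 9422 at day 110. The hepatocyte markers TF and FGB were higher in MS at day 90, by 2.01 and 2.10. FGB was, however, well above background on 13 of 63 arrays. The other hepatocyte markers went in both directions and were not called: APOH -3.94, SERPINC1 -0.14, ALB -0.11, F2 0.35 and HP 0.80. Of 4 red cell markers tested, 3 fell with age (HBB, HBE1 and AHSP, by 1.08 to 1.80), and AHSP was higher in MS at day 90, by 1.96. At day 110 the macrophage marker CD163 (1.04) and the glial marker S100B (0.81) were higher and the endothelial marker KDR (-1.06) was lower in MS. The part of these markers in the enzyme differences was not tested.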

How the data were processed

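The authors deposited the Agilent Feature Extraction output of each array (version 10.10.1.1 in the submitters' processing notes), which holds raw and background-corrected linear intensity for every spot. A deposited matrix holds the authors' log2 values of 39446 probes, among them 69 probes of 34 member genes. Its column medians all lay at 8.61, and each column correlated at 0.993 to 1.00 with the log2 median spot intensity of the same array. How its probes were selected is not given in the sources used here.

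The 75th percentile of log2 processed intensity was subtracted per array, after control spots had been left out and outlier spots set to missing, and repeated spots of a probe were averaged. The filter kept probes that were well above background in 75% or more of a group's arrays. The background subtraction makes the size of differences near the floor uncertain.

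The 8 group means were fitted with limma 3.58.1 (R 4.3.3) over all 63 fetuses, and two-sided p-values were adjusted by Benjamini and Hochberg over 40515 probes. Age and breed calls needed an adjusted p of at most 0.01 and a log2 difference of at least 0.5. Calls for sow, sire and interactions needed an adjusted p under 0.05. The difference by sow or sire is the mean of both genotypes with an MS parent minus that of both with an LW parent, with the ages averaged. The fit was tested on simulated data.

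The brightest tested probe stood for a gene. Named were the receptors and the genes whose standing probe was called for age, breed, sow or sire, 22 genes in all; other probes of a named gene were named where they differed. The members and the lists of partner and marker genes were chosen with earlier results of these data known. Probe sequences are those of the scanner files, and 65 of the 103 members matched a RefSeq symbol by accession. For 3 of them, the probes named SULT1A1, that symbol was SULT1A3. Alternatives were normexp (offset 50), quantile normalization, median centring, the authors' values, 2 other filters, slide as a block, array weights, purebred fetuses alone, no minimum difference, and fits without LW fetuses 484 and 469. Fits without MS fetus 632, alone or with those 2, were added after the data were seen. Values of some single genes of these lists are not reported here.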

Additional observations from a re-analysis of the deposited data

Results flagged for a closer look

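In groups of 4 to 10 fetuses, the highest or lowest fetus was marked when its gap to the nearest other fetus was a large share of the range of the group (Dixon's 95% critical value). Of 176 pairs of a named gene and a group, 23 were marked, where 8.8 are expected at 1 in 20, and pairs share fetuses, so they are not independent. All values are log2 levels.

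MS fetus 632 at day 110 accounted for 4. It was the lowest in CYP3A29 (-2.85), CYP3A46 (-2.19) and CYP2C42 (-6.62) and the highest in CYP2A19 (-2.84). LWMS fetus 405 at day 110 was the lowest in CYP2C42 (0.71), CYP2C49 (-0.25) and CYP2C34 (0.69). MSLW fetus 560 at day 110 was the highest in CYP2C49 (3.48) and CYP2C34 (3.94). MSLW fetus 450 at day 90 was the lowest in FMO1 (-2.66) and GSTT1 (-1.96) and the highest in CYP3A46 (2.85).

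LWMS fetus 609 at day 110 was the lowest in CES3 (4.42, probe O1303) and CES1 (4.40), which are 1 reading. Among dim signals, SULT1E1 was highest in LW fetus 469 (-3.75) and MSLW fetus 481 (-4.14) at day 110. CYP3A4 was highest in LW fetus 458 (-2.98) and LWMS fetus 533 (-3.71) at day 90, and lowest in MS fetus 826 at day 90 (-7.95) and MSLW fetus 851 at day 110 (-7.29). GSTA4 was highest in MSLW fetus 476 at day 110 (0.82). At day 90, SULT2A1 was highest in MS fetus 532 (-3.77) and GSTO1 was highest in MS fetus 827 (5.68).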

How the results depend on the processing

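Of 144 counts of called members recomputed under the alternatives, 128 stayed within 1.5 times the reported count. Those that did not were these. The count lower at day 110 went from 8 to 4 with normexp and 4 in the authors' values. The count changed with age in MS went from 5 to 3 with median centring, 15 with array weights, 10 without MS fetus 632 and 12 without fetuses 632, 484 and 469. That in MSLW went from 9 to 15 with array weights, 14 without fetus 632 and 15 without the 3 fetuses. Between MS and LW, the count at day 90 went from 10 to 20 with array weights, and that at day 110 from 10 to 6 with median centring and 18 with array weights. By sow it went from 15 to 35 with array weights and 27 without the 3 fetuses. With array weights 1 member passed for sow by age and 3 for genotype by age, against 0 for both. The cause of these moves was not tested.

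Of 460 recomputed differences of named genes, 434 stayed on the same side of the threshold, 26 lost their call and 0 reversed. Calls that were lost, beyond those given with the genes, were CYP4A21 at day 90 (median centring, and purebred fetuses alone) and CYP2D25 by sow (median centring). Median centring moved the median of all probes for MS minus LW at day 110 to 0.15, from 0.02. Dim probes, such as those of SULT1E1, CYP4F2 and CYP3A4, limit the size of a difference, since signals near background have no reliable log. No analysis paired within litters was possible because the sample labels do not give the sow of each fetus.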
